A study of Mus musculus with 70 samples.

Results

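The 18 livers described here came from male offspring of dams fed a high-fat diet (HFD), sampled at 4 weeks of age, and they are 18 of the 70 RNA-seq samples of the series. They were chosen by their labels alone, as the samples with maternal diet HFD and age 4 weeks in the title, 3 mice at each of ZT1, ZT5, ZT9, ZT13, ZT17 and ZT21. ZT0 is lights on and ZT12 lights off. All mice of the series were wild-type C57BL/6. Dams ate D12492 as HFD, or AIN-93G as the control diet (Ctr), from before mating until delivery, and were mated with control C57BL/6 males. From delivery on, all mothers and pups had chow, litters were evened out to the same number of pups, and the offspring were weaned onto chow, so the HFD label names the mother's diet and not the offspring's own. By the authors' account mice at a time point came from different litters, and each mouse gave 1 library of poly-A selected liver RNA. The libraries held 15867488 to 19133010 counts, with a median of 17923327.5. For comparison the 16 Ctr offspring at 4 weeks, with 2 mice at ZT9 and ZT13 and 3 at the other times, and the 18 HFD offspring at 16 weeks are used at the end.

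In the liver clock, the transcription factors CLOCK, its relative NPAS2 and their partner BMAL1 (gene Arntl) switch on their own repressors, the PER and CRY proteins, and the nuclear receptors REV-ERBα and REV-ERBβ (genes Nr1d1 and Nr1d2), which repress Arntl in competition with the ROR receptors. DBP, TEF, HLF and their antagonist NFIL3 pass the rhythm on to genes of metabolism. Mice eat mostly in the dark and fast in much of the light phase, and feeding, body temperature and glucocorticoids add daily rhythms in liver genes of lipid, glucose, protein and drug metabolism.

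Each value is a normalised read count, in CPM (counts relative to the library total). Values of single genes are after TMM scaling, while sums over marker lists and the value of Ctrb1 are before it. Each gene's counts in the 18 mice were fitted with a cosine and a sine of 24 h by edgeR's quasi-likelihood model and tested against no rhythm, and a gene is called rhythmic at a Benjamini-Hochberg adjusted p under 0.05 (written below as edgeR adjusted p). The amplitude is the distance from the fitted mean to the fitted peak on the log2 scale, and amplitudes and peak times are given ± SE, n = 18 mice. Peak times are those of the fitted curve, which can lie away from the ZT of the highest values. For 24 h calls of named genes that ended when 1 mouse was left out, these mice are given. For the 12 h calls given further below no such mice are listed. Without all 6 mice of replicate 1, 2 or 3, 40, 56 and 15 of the 124 named calls ended. CPM depend on gene length, so they are compared between mice and not between genes. Where a gene given with its amplitude overlaps another in the annotation this is said, because the strand setting of the counting is not given in the sources used here.

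Hepatocyte markers were high in all 18 livers, with a sum of 122300 to 175770 CPM and Alb, the serum albumin gene, at the highest CPM. Alb had 80536 to 131366 CPM and was not rhythmic (amplitude 0.12 ± 0.07). Markers of other liver cells were low in sum and had no member called among the 8 tested markers of Kupffer cells, the 8 of endothelial cells, the 8 of stellate cells, the 8 of lymphocytes, the 7 of neutrophils and the 7 of the erythroid lineage, against 12.4% of all genes tested. Their sums were 292 to 708 CPM for Kupffer cells (highest Cd5l), 307 to 516 for endothelial cells (Ptprb), 355 to 724 for stellate cells (Dcn), 1.82 to 6.36 for lymphocytes (Cd79b), 0.448 to 10.0 for neutrophils (S100a9) and 227 to 809 for the erythroid lineage (Hbb-bs). With 7 or 8 members a list, 0 calls is near the share of all genes and is no result about a cell type. Genes of few reads, as in the lymphocyte and neutrophil lists, were called less often (1.90% in the lowest quartile of mean CPM). By edgeR these lists had 1, 1, 2, 1, 0 and 0 members with an unadjusted p under 0.05, and limma-voom, DESeq2 and edgeR with replicate number as a block each called 1 endothelial marker. With the first principal component as covariate 1 Kupffer, 2 endothelial, 1 stellate and 1 lymphocyte marker were called, and without the 4 libraries of high mitochondrial share (both given below) 1 stellate, 1 lymphocyte and 1 neutrophil marker. Over all genes these 2 fits called 4025 of 17293 and 2256 of 17368. By limma-voom, DESeq2 and the block the calls were 2237 of 17293, 3059 of 14572 and 2529 of 17293. Leaving out 1 mouse gave 1 endothelial call (replicate 3 at ZT1, ZT5 or ZT13, replicate 1 at ZT13 or ZT17, or replicate 2 at ZT17), 1 stellate call (replicate 1 at ZT17) or 1 lymphocyte call (replicate 2 at ZT5 or replicate 3 at ZT21). The cholangiocyte list summed to 25.6 to 126 CPM, led by Spp1, and had 1 of 6 called (Sox9), or 2 without replicate 2 at ZT9. No list had a marker at 0 in all 18 livers. In bulk liver, fewer cells of a type and less RNA per cell cannot be told apart.

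Replicate 2 at ZT9 stood apart. All 22 pancreatic acinar markers were higher in it than in any other HFD mouse at 4 weeks, and their sum was 75199 CPM, or 7.52% of the library, against at most 30.4 CPM in the other 17. Ctrb1, which encodes the digestive enzyme precursor chymotrypsinogen B, led with 13428 CPM. Islet markers were at 6.91 CPM in this library against at most 0.281 in the others, and the 6 adipocyte markers were all highest in it, at 185 CPM in sum against at most 23.6. All 4 acinar markers that entered the test (Cela1, Cela2a, Ctrl and Pnliprp1) were called rhythmic by edgeR with all 18 mice and 0 without this mouse (edgeR adjusted p 0.474 to 0.680), and limma-voom called 0 with all mice. DESeq2 gave the 4 no adjusted p. Cela2a overlaps Casp9 and Ctrc. Pnliprp1, a pancreatic lipase relative, had 1859 CPM in it and at most 0.297 in the others, and Klk1, a tissue kallikrein, 429.7 CPM against at most 0.607. Results below are from all 18 mice unless it is said that a mouse was left out.

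Of the 2136 rhythmic genes, 17 had more than 50% of their CPM in 1 library (46 of all genes tested), and 13 of these had it in replicate 2 at ZT9. Beside the 4 acinar markers and Klk1 they were Tff2, Cfd, Nupr1, Erp27, Spink1, Phgdh, Cabp2 and Prkar2b. Without that mouse 12 of the 13 were still tested, and edgeR called 0, with 1 at an unadjusted p under 0.05. The 13 are among the 49 genes that peaked around ZT9 with an amplitude of at least 1. The remaining 4 were Tnnt2 in replicate 1 at ZT13, Mylpf and Casq1 in replicate 1 at ZT21, and Mup8 in replicate 3 at ZT21. Mylpf, a myosin light chain of fast skeletal muscle, had 37.0 CPM in its mouse and at most 0.776 in the others, and without that mouse its amplitude was 0.28 (edgeR adjusted p = 0.881). By limma-voom Klk1, Mylpf and Mup8 were not called with all mice. These genes were chosen after their values were seen, except Mylpf, Mup8, Klk1 and the 4 acinar markers, which the naming rule gives.

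**Figure D1:**
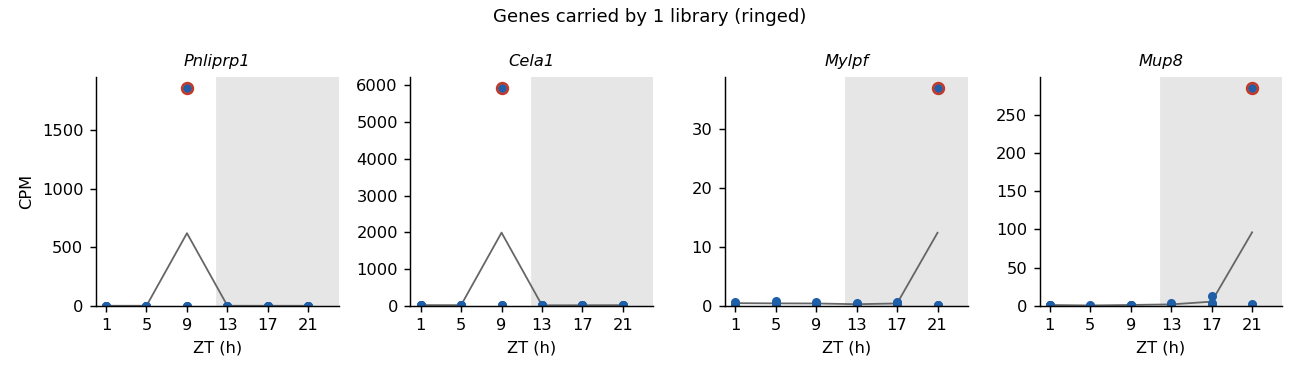
CPM of Pnliprp1, Cela1, Mylpf and Mup8 in each of the 18 HFD livers at 4 weeks (points, y axis) against ZT in h (x axis), with the highest library ringed. A single mouse holds each peak, at 1859, 5931, 37.0 and 285 CPM.

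Other libraries stood apart in less. Transcripts of the mitochondrial genome took 12.4% of counts in replicate 3 at ZT1, 10.3% in replicate 3 at ZT13, 9.56% in replicate 2 at ZT17 and 10.1% in replicate 3 at ZT21, and 4.80% to 7.52% in the other 14. Once each ZT's mean was taken away, 16.3% of the variance lay on the first principal component, and the weights of genes on it ran with their GC content (Spearman's rho −0.77 across 12090 genes, which are not independent replicates). Scores on it ran with the mitochondrial share of the 18 libraries (Spearman's rho 0.71), and the 4 libraries of high share scored highest. Using the component as covariate and leaving out these 4 libraries are thus not separate checks. Replicate 3 at ZT21 carries an age of 16 weeks in 1 of its labels and 4 weeks in its title and table. Of the 100 genes of lowest p between the other 17 HFD mice at 4 weeks and the 18 at 16 weeks, it lay nearer the 4-week mean in 95, where the other 4-week mice did so in at least 81 and the 16-week mice in at most 15. The genes and both means came from those same mice, so 81 and 15 are not independent yardsticks. Counts of the 2 ages came in separate tables, so age and table cannot be told apart here.

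Of 17293 genes tested, 2136 (12.4%) were rhythmic, and 4622 had an unadjusted p under 0.05. Rhythms were mostly shallow: the median amplitude was 0.49, which is a peak 1.97 times the trough, with quartiles of 0.36 and 0.72. For all genes tested the median was 0.27. An amplitude of at least 1 was reached by 294 genes (13.8%), and 1109 (51.9%) stayed under 0.5. Rhythmic genes held 21.0% of all CPM. Calls rose with the level of a gene, from 1.90% in the lowest quartile of mean CPM to 9.99%, 15.4% and 22.1% in the next ones. Among protein-coding genes 1984 of 14175 (14.0%) were called, among lincRNA genes 47 of 541 (8.69%) and among antisense genes 31 of 523 (5.93%). A protein-coding gene was overlapped by 488 (22.8%) of the rhythmic genes. Without replicate 2 at ZT9 the count was 1867, of which 1793 were also called with all 18 mice (83.9% of the 2136), and the median amplitude was 0.52. The count was 4025 with the first principal component as covariate, and 792, 558 and 1473 without all mice of replicate 1, 2 and 3.

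Peaks were spread over the whole day with 1005 in the light and 1131 (52.9%) in the dark, and had a median SE of 0.836 h. In windows of 4 h centred on ZT1, ZT5, ZT9, ZT13, ZT17 and ZT21 there were 268, 456, 304, 298, 439 and 371 peaks. The fullest hours were ZT5 to ZT6 with 135 genes, ZT6 to ZT7 with 134 and ZT16 to ZT17 with 125, and the emptiest was ZT10 to ZT11 with 50. The windows of ZT5 and ZT17 held the most peaks, also without replicate 2 at ZT9, without replicate 3 at ZT21, without the 4 libraries of high mitochondrial share, with the first principal component as covariate and by limma-voom, while the order of the other 4 windows changed between these fits. Median amplitudes in the same order were 0.53, 0.51, 0.47, 0.46, 0.43 and 0.51. Genes in the windows of ZT1, ZT5 and ZT9 were richer in GC, with medians of 52.2%, 54.1% and 53.2%, than those of ZT13, ZT17 and ZT21 with 48.7%, 48.3% and 49.3%. The median of all genes tested was 50.2%. Without the 4 libraries of high mitochondrial share the window medians were 52.4%, 52.4% and 51.4% against 48.6%, 49.35% and 51.2%. With the first principal component as covariate they were 52.3%, 54.8% and 54.15% against 48.4%, 46.8% and 48.3%. The part of base composition, which also ran with the first principal component, in these counts was not tested. Without replicate 2 at ZT9 the windows held 247, 399, 259, 260, 380 and 322 genes.

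**Figure D2:**
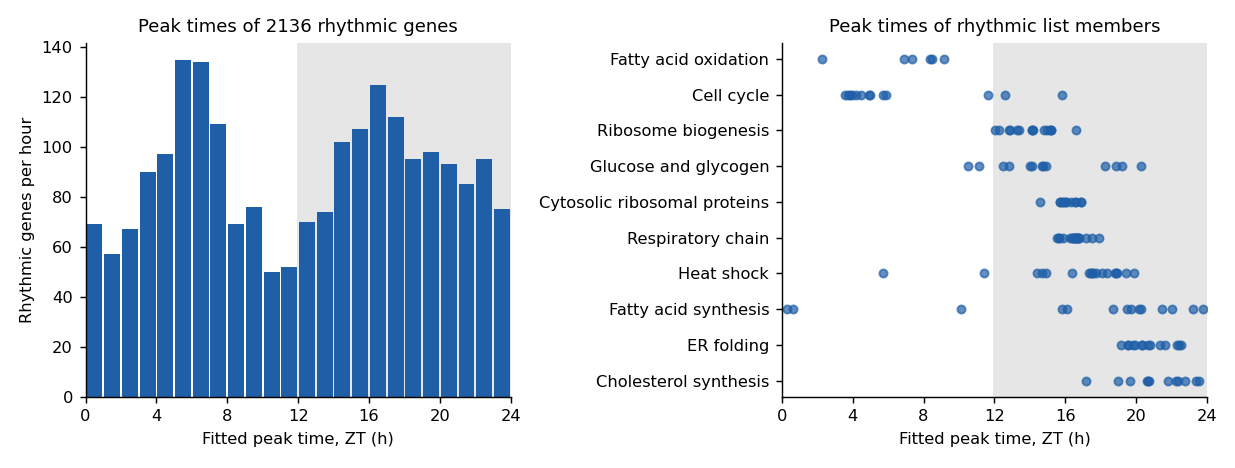
Left, number of rhythmic genes (y axis) per hour of fitted peak time (x axis, ZT in h) for all 2136 genes; right, fitted peak time (x axis) of each rhythmic member (points) of 10 gene lists (y axis), with the dark phase in grey. The fullest hour, ZT5 to ZT6, holds 135 genes, and the rhythmic members of fatty acid oxidation and cholesterol synthesis lie on opposite sides of the day, with mean peaks at ZT7.28 and ZT21.2.

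Of the 19 genes of the clock list, 18 were rhythmic against 12.4% of all genes, and the median amplitude over the 19 was 1.39, against 0.27 over all genes tested. Npas2 (ENSMUSG00000026077, chr1:39193731-39363236 of GRCm38, plus strand) had the deepest rhythm, with 10.2, 11.9 and 10.5 CPM at ZT1, 3.13, 0.518 and 0.667 at ZT5, 0 in all 3 mice at ZT9, 0, 0 and 0.123 at ZT13, 1.13, 1.66 and 0.702 at ZT17 and 10.4, 9.13 and 11.5 at ZT21. All 6 mice at ZT1 and ZT21 lay above all others, and no read was counted in 5 of 6 mice at ZT9 and ZT13. The fit gave an amplitude of 4.08 ± 0.35 and a peak at ZT23.1 ± 0.244 h (edgeR adjusted p = 4.0e-08). Arntl had 34, 29.8 and 37 CPM at ZT1, 16, 9.37 and 8.63 at ZT5, 0.524, 0.938 and 0.973 at ZT9, 9.08, 9.54 and 6.27 at ZT13, 20.7, 29.3 and 29.2 at ZT17 and 33.6, 33.6 and 34.7 at ZT21, so the 3 mice at ZT9 fell below all others and those at ZT1, ZT17 and ZT21 lay above the rest. Its peak was at ZT21.5 ± 0.448 h. Clock itself moved less (amplitude 0.58 ± 0.12, peak ZT21.1), from 26.7 to 31.3 CPM at ZT9 to 70.6 to 101 at ZT21.

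The repressors of Arntl followed in the light phase. Nr1d1 had 7.27, 7.55 and 12 CPM at ZT1, 49.7, 50.5 and 64.7 at ZT5, 32.9, 43.4 and 28.9 at ZT9, 11.6, 12.3 and 15.4 at ZT13, 1.96, 0.925 and 1.34 at ZT17 and 0.759, 0.845 and 1.29 at ZT21, with the highest values in the middle of the light phase, where all 6 mice at ZT5 and ZT9 exceeded the other 12. Its amplitude was 2.96 ± 0.16 and its peak ZT7.21 ± 0.194 h, though Nr1d1 overlaps Thra on the other strand. Nr1d2 (amplitude 1.93 ± 0.15, peak ZT9.44) came later, with 104 to 143 CPM at ZT9 and 6.73 to 15.5 at ZT21. Rora, a ROR receptor that activates the same element, was called with all mice (amplitude 0.51 ± 0.13, peak ZT20.4, edgeR adjusted p = 0.0294) but not without any single one of 6 of them, which were replicates 1, 2 and 3 at ZT5, replicates 1 and 3 at ZT9 and replicate 3 at ZT21 (amplitude 0.43 to 0.51, edgeR adjusted p 0.0508 to 0.0983).

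Among clock outputs, Dbp, an activator of detoxification genes, had 0.271, 0.158 and 0.325 CPM at ZT1, 10.5, 43.6 and 28.4 at ZT5, 113, 167 and 117 at ZT9, 21.7, 26.4 and 15.9 at ZT13, 5.17, 2.03 and 4.21 at ZT17 and 1.77, 1.06 and 1.22 at ZT21. The 3 mice at ZT9 lay above all others and the 3 at ZT1 below all others. Its amplitude was 3.64 ± 0.32 with a peak at ZT9.48 ± 0.303 h (edgeR adjusted p = 3.5e-07), and it overlaps Sphk2. Tef peaked later (amplitude 1.26 ± 0.11, peak ZT11.8), from 19.3 to 25.3 CPM at ZT1 to 148 to 172 at ZT9, and Hlf later still with a shallow rhythm (amplitude 0.42 ± 0.08, peak ZT13.4). Nfil3, the repressor that binds the same element, had 89, 78.7 and 68.6 CPM at ZT1, 20.7, 21.3 and 22.1 at ZT5, 16, 14.5 and 12.1 at ZT9, 58.4, 52.9 and 54.2 at ZT13, 50.6, 46.1 and 61.4 at ZT17 and 48.2, 47.5 and 57.8 at ZT21, so it was lowest in the light phase at ZT5 and ZT9, where the 6 mice lay below all others. The fitted peak was ZT20.1 ± 0.730 h with an amplitude of 0.93 ± 0.18, although the mice at ZT1 were above all others.

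The fitted peaks of the Per and Cry genes lay in the dark. Per3 came first by the fit (amplitude 1.71 ± 0.14, peak ZT12.5) and overlaps Camta1. It was already high in the light, with 20.8 to 25.5 CPM at ZT9, 19.5 to 23.6 at ZT13 and 1.24 to 3.12 at ZT1. Per1 was shallower (amplitude 0.67 ± 0.13, peak ZT13.5). Per2 (ENSMUSG00000055866, chr1:91415982-91459324 of GRCm38, minus strand) had 12.7, 7.18 and 4.42 CPM at ZT1, 5.65, 9.27 and 6.58 at ZT5, 27.5, 25.8 and 31.2 at ZT9, 43.4, 41.2 and 35.8 at ZT13, 56.5, 40.6 and 30.0 at ZT17 and 45.7, 24.6 and 22.7 at ZT21, with the 6 mice at ZT1 and ZT5 below all others and a peak at ZT15.2 ± 0.444 h. Cry1 (ENSMUSG00000020038, chr10:85131700-85185064 of GRCm38, minus strand) had 27.8, 23 and 24.9 CPM at ZT1, 8.68, 9.11 and 5.43 at ZT5, 12.5, 11.2 and 10.7 at ZT9, 39.9, 37 and 37.1 at ZT13, 56.9, 63.1 and 78.5 at ZT17 and 66.3, 71 and 76.3 at ZT21. Its 6 mice at ZT17 and ZT21 exceeded the rest, those at ZT5 were lowest, and the fit gave an amplitude of 1.67 ± 0.09 and a peak at ZT18.4 ± 0.202 h (edgeR adjusted p = 6.9e-10). Cry2 was shallow (amplitude 0.47 ± 0.07, peak ZT14.8). Ciart, a repressor of CLOCK and BMAL1, rose from 0.106 to 0.195 CPM at ZT1 to 12.8 to 14.5 at ZT9 (amplitude 2.77 ± 0.31, peak ZT11.9). Bhlhe40 and Bhlhe41 encode further repressors of the same pair. Bhlhe40 was the only clock list member not called (amplitude 0.10 ± 0.10, peak ZT14, edgeR adjusted p = 0.787). Bhlhe41, at 0.973 to 1.99 CPM at ZT9 and at most 0.776 elsewhere, was called (amplitude 1.46 ± 0.43, peak ZT9.61, edgeR adjusted p = 0.0362) but not without any single one of 6 mice, which were replicates 1, 2 and 3 at ZT9, replicate 1 at ZT13, replicate 2 at ZT17 and replicate 1 at ZT21 (amplitude 1.23 to 1.49, edgeR adjusted p 0.0528 to 0.122), nor without the 4 libraries.

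Read in order of fitted peak time, the clock genes named here began with Nr1d1, Nr1d2, Dbp and Bhlhe41 in the second part of the light phase. Tef, Ciart, Per3, Hlf and Per1 followed around lights off, and Cry2, Per2 and Cry1 in the dark. Nfil3, Rora, Clock, Arntl and Npas2 came before lights on, although Nfil3 was highest in the mice at ZT1. When each mouse was placed on the clock by the 18 rhythmic members fitted without it, all 18 mice fell within 2 h of the labelled ZT, from −2 to 1.4 h, with a median absolute difference of 1 h. Differences were shared within some time points, at 1.1 to 1.4 h in the 3 mice at ZT9 and −2 to −1.5 h in those at ZT21. The 18 genes were chosen as rhythmic in these same labelled mice.

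**Figure D3:**
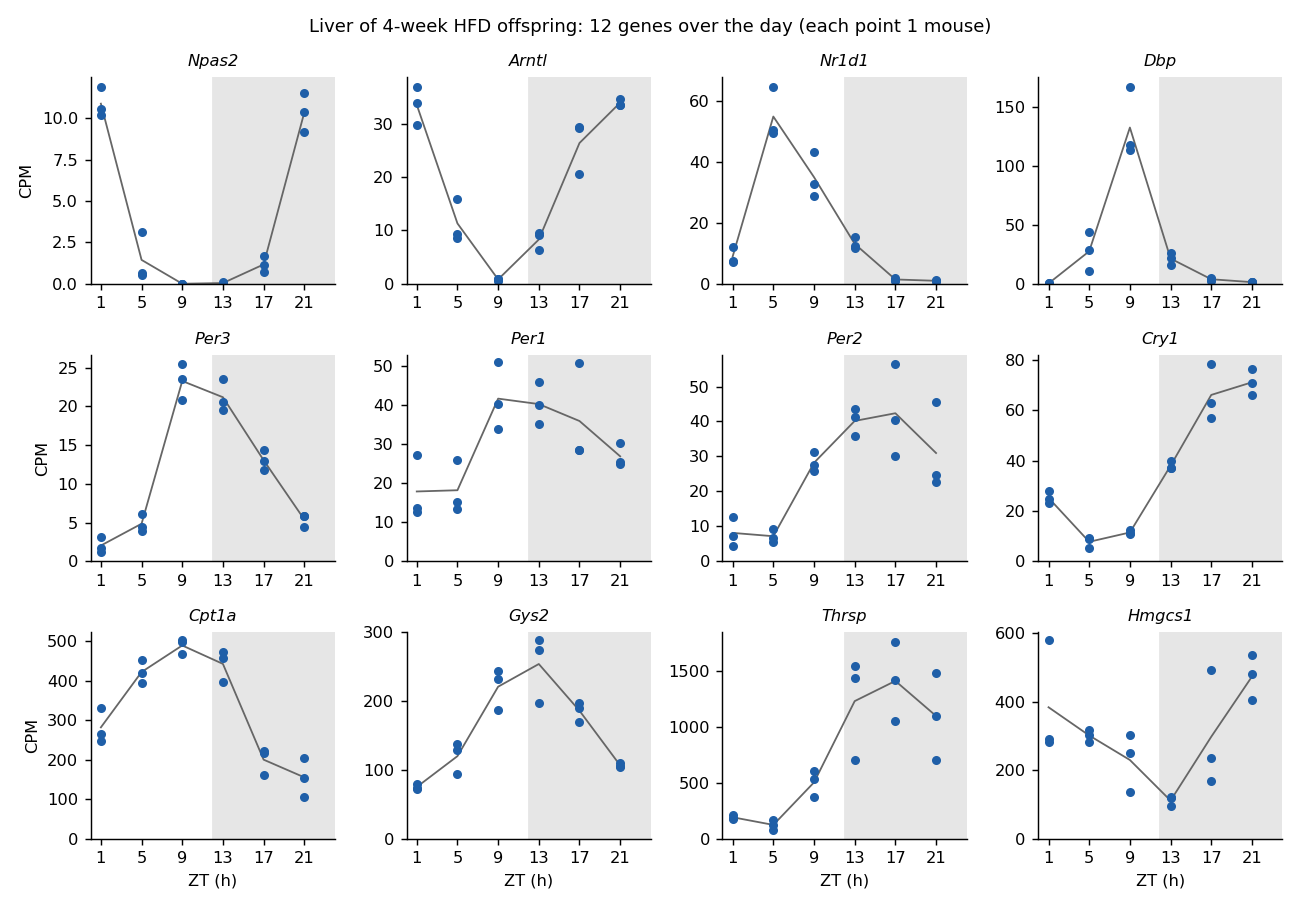
CPM (y axis) against ZT in h (x axis) for Npas2, Arntl, Nr1d1, Dbp, Per3, Per1, Per2, Cry1, Cpt1a, Gys2, Thrsp and Hmgcs1 in the 18 HFD livers at 4 weeks; points are mice, lines join the means of 3 mice, and grey marks the dark. Peak times run from ZT7.21 for Nr1d1 through ZT12.5 for Gys2 to ZT23.6 for Hmgcs1.

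Promoter letters are shown for clock genes because the clock factors act through known short elements. In the 250 bases before each start of transcription (RefSeq, GRCm38.p6), searched on both strands, the E-box CACGTG of CLOCK and BMAL1 is found in 6.02% of all 32851 promoters and in 5 of the 16 clock list members with a promoter in the table, namely Cry1, Tef, Ciart, Per1 and Bhlhe41. The D-box TTANGTAA, the letters bound by DBP, TEF, HLF and NFIL3, is in 2.06% of all promoters and in Per3. The ROR element TAGGTCA is in 2.23% and in Nfil3. The 32851 promoters belong to 27025 genes, so these percentages are shares of promoters while list members are counted as genes. A match describes letters and is not a shown binding site. The stretches below are 5′ to 3′ on the strand of the gene, with the E-box or, in Per3, the D-box in capitals.
Per1, chr11:69098771-69098800, plus strand: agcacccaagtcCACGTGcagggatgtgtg
Ciart, chr3:95882327-95882356, minus strand: tgcatctagagtCACGTGttgccggtaagc
Cry1, chr10:85185097-85185126, minus strand: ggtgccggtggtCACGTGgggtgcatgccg
Per3, chr4:151044852-151044881, minus strand: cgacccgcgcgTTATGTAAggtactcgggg

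Around lights on (the window of ZT1) the largest amplitudes outside the clock were in Loxl4, Dhrs9, Aqp8 and Spon2. Loxl4 (ENSMUSG00000025185, chr19:42593982-42612813 of GRCm38, minus strand), an oxidase that crosslinks collagen, had 29.3, 28.7 and 19.8 CPM at ZT1, 7.81, 4.14 and 4.38 at ZT5, 1.47, 1.17 and 0.703 at ZT9, 0.593, 1.42 and 0.676 at ZT13, 4.27, 2.77 and 4.27 at ZT17 and 20.6, 16.7 and 10.3 at ZT21. The 6 mice at ZT1 and ZT21 lay above the rest, those at ZT9 and ZT13 stayed at or below 1.47 CPM, and the amplitude was 2.53 ± 0.15 with a peak at ZT23.5 ± 0.205 h (edgeR adjusted p = 6.9e-10). Dhrs9, a dehydrogenase of retinoids and steroids, went from 0.315 to 0.528 CPM at ZT9 to 4.61 to 9.82 at ZT1 (amplitude 1.66 ± 0.22, peak ZT23.3). Aqp8, a water channel of the bile canaliculus, had 103, 117 and 75.5 CPM at ZT1, 119, 117 and 95.4 at ZT5, 34.7, 50.8 and 25.2 at ZT9, 10.3, 8.69 and 5.96 at ZT13, 85.8, 104 and 59.3 at ZT17 and 255, 127 and 166 at ZT21, lowest in the 3 mice at ZT13 and highest in those at ZT21 (amplitude 1.61 ± 0.24, peak ZT23.7). Spon2, a secreted matrix protein, fell from 18.5 to 20.0 CPM at ZT5 to 1.11 to 2.50 at ZT13 (amplitude 1.56 ± 0.15, peak ZT1.95). Without replicate 2 at ZT9 the 4 leading genes of this window were Loxl4, Dnaic1 (peak ZT2.97), Aqp8 and Spon2.

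In the window of ZT5 the leading genes were Dnaic1, Prtn3, Ckap2l and Unc93a2. Dnaic1, a dynein chain of cilia that overlaps Enho, had 1.64 to 3.31 CPM at ZT1 and 0.057 to 0.246 at ZT13 (amplitude 1.94 ± 0.31, peak ZT3.08). Ckap2l, a protein of the mitotic spindle, had 2.12 to 5.29 CPM at ZT5 and 0.119 to 0.643 at ZT17 (amplitude 1.56 ± 0.23, peak ZT4.43). Unc93a2, which overlaps AC117241.1, had 2.93 to 4.97 CPM at ZT5, above every other mouse, and 0.059 to 0.760 at ZT17 (amplitude 1.52 ± 0.29, peak ZT5.30). Prtn3, a protease of neutrophils that overlaps Plppr3, had 30.6 CPM in replicate 2 at ZT1 and at most 8.70 in any other mouse. Its call (amplitude 1.57 ± 0.42, peak ZT3.73, edgeR adjusted p = 0.0436) ended without any single one of 10 mice, which were replicate 3 at ZT9, replicates 1, 2 and 3 at ZT13, replicates 1, 2 and 3 at ZT17 and replicates 1, 2 and 3 at ZT21 (amplitude 1.51 to 1.65, edgeR adjusted p 0.0509 to 0.0711). The call also ended by limma-voom, with replicate number as a block, with the first principal component as covariate and without the 4 libraries. Without replicate 2 at ZT9 the leading genes were Prtn3, Ckap2l, Unc93a2 and Hmmr (amplitude 1.45, peak ZT3.47).

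At ZT9 the 4 largest amplitudes were those of Pnliprp1, Ctrl, Cela2a and Klk1, which rest on 1 mouse as given above (amplitude 0.64, edgeR adjusted p = 0.680 for Pnliprp1 without replicate 2 at ZT9). Without that mouse the same rule gives Ppp1r3g (amplitude 2.28, peak ZT10.4), Cyp2g1 (1.60, ZT7.96), Slc41a3 (1.58, ZT10.1) and Pcsk4 (1.47, ZT10.5). Ppp1r3g, a glycogen-targeting subunit of protein phosphatase, had 3.04, 2.38 and 3.19 CPM at ZT1, 2.46, 23.8 and 14.4 at ZT5, 11.4, 19.2 and 3.40 at ZT9, 51, 60.0 and 39.5 at ZT13, 0.475, 1.60 and 9.53 at ZT17 and 0.708, 4.54 and 1.08 at ZT21. The 3 mice at ZT13 lay above all others and values at ZT5, ZT9 and ZT17 were scattered between mice. Cyp2g1 encodes a cytochrome P450, Slc41a3 a magnesium carrier and Pcsk4 a prohormone convertase.

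Around lights off (ZT13) the leading genes were Usp2, Gapdh, Ces2b and Hspa1a. Usp2, a deubiquitinase, had 12, 7.60 and 7.16 CPM at ZT1, 2.05, 8.90 and 7.58 at ZT5, 51.7, 50.8 and 68.4 at ZT9, 53.3, 66.4 and 63.7 at ZT13, 43.9, 21.1 and 31.1 at ZT17 and 18.8, 15.7 and 21.1 at ZT21. The 6 mice at ZT9 and ZT13 lay above the rest (amplitude 1.57 ± 0.21, peak ZT13.2, edgeR adjusted p = 1.4e-04), and the gene overlaps Gm49380. Hspa1a, an inducible HSP70 that is nearly identical to Hspa1b, so that its unique counts are uncertain, overlaps Gm20481 and had 14.7, 15.3 and 6.64 CPM at ZT13 and 2.41, 1.03 and 0.858 at ZT5 (amplitude 1.41 ± 0.31, peak ZT14.4). Ces2b, a carboxylesterase, was called (amplitude 1.45 ± 0.38, peak ZT14, edgeR adjusted p = 0.0233), with 5.93, 1.36 and 1.66 CPM at ZT13, but not without replicate 2 at ZT1 or replicate 1 at ZT13 (amplitude 1.09 to 1.38, edgeR adjusted p 0.0506 to 0.144). Gapdh, of glycolysis, overlaps Iffo1, has many near-identical pseudogenes and had 53.1 CPM in replicate 2 at ZT13, 20.6 in replicate 2 at ZT17 and at most 3.23 in the other 16. Its call (edgeR adjusted p = 0.0368) ended without any single one of 10 mice, which were replicates 1 and 2 at ZT1, replicates 1, 2 and 3 at ZT5, replicate 2 at ZT13, replicate 2 at ZT17 and replicates 1, 2 and 3 at ZT21 (amplitude 0.63 to 1.60, edgeR adjusted p 0.0513 to 0.363). It also ended by limma-voom and with replicate number as a block.

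In the window of ZT17 Fam107a, Thrsp and Nat8f5 were among the genes of largest amplitude. Thrsp (ENSMUSG00000035686, chr7:97412938-97417730 of GRCm38, minus strand), a lipogenic protein induced by feeding and thyroid hormone, had 217, 178 and 184 CPM at ZT1, 77.1, 168 and 128 at ZT5, 376, 537 and 603 at ZT9, 1549, 1445 and 708 at ZT13, 1768, 1425 and 1052 at ZT17 and 1489.7, 709.7 and 1104 at ZT21. All 9 mice at ZT13, ZT17 and ZT21 lay above the other 9, with a peak at ZT16.1 ± 0.330 h and an amplitude of 1.86 ± 0.16, a peak 13.3 times the trough. Fam107a, an actin-bundling stress protein, had 9.20, 47.5 and 25 CPM at ZT13 and 0.257, 0.828 and 0.906 at ZT5, so the 2 highest mice were at ZT13 although the fitted peak was ZT15.7 (amplitude 1.93 ± 0.41). Nat8f5, an acetyltransferase relative with near-identical neighbours that overlaps Nat8f6, had 19.5, 26.7 and 9.82 CPM at ZT17 and 2.62, 0.725 and 1.14 at ZT5 (amplitude 1.47 ± 0.24, peak ZT18.5).

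Late in the dark (ZT21) the leading genes were Pnpla5, Mup8, Mylpf and Tubb2b. Pnpla5 (ENSMUSG00000018868, chr15:84112356-84123175 of GRCm38, minus strand), a lipase of lipid droplets, had 0.434, 0 and 0.586 CPM at ZT1, 0.103, 0.052 and 0 at ZT5, 0, 0.293 and 0 at ZT9, 0.237, 0.341 and 0.062 at ZT13, 2.85, 5.24 and 0.877 at ZT17 and 7.13, 2.32 and 5.21 at ZT21. All 6 mice at ZT17 and ZT21 lay above the other 12, and the amplitude was 3.63 ± 0.51 with a peak at ZT19.4 ± 0.415 h (edgeR adjusted p = 1.2e-05). Tubb2b, a beta-tubulin, had 8.96, 2.32 and 2.91 CPM at ZT21, 3.63, 8.13 and 0.455 at ZT1 and at most 1.13 at ZT5, ZT9 and ZT13 (amplitude 2.43 ± 0.38, peak ZT22.3). Mup8, a major urinary protein with near-identical relatives so that its counts are uncertain, had 285 CPM in replicate 3 at ZT21, 12.8 in replicate 2 at ZT17 and at most 3.03 in the other 16. Both of these mice are among the 4 with a high mitochondrial share. With all mice its amplitude was 3.62 ± 0.78 and without replicate 3 at ZT21 it was 1.48 with a peak at ZT17.0 (edgeR adjusted p = 0.00907). Without the 4 libraries it was 0.75 and not called (edgeR adjusted p = 0.222). The fourth gene, Mylpf, rests on replicate 1 at ZT21 (37.0 CPM), and without it had an amplitude of 0.28.

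For each list that follows, the values over all genes tested in the main fit are 12.4% called and a median amplitude of 0.27. Over all genes, 1867 of 17118 were called without replicate 2 at ZT9. Without replicate 2 at ZT9 the count of rhythmic members fell from 18 to 17 in the clock list, 13 to 12 in the cell cycle, 7 to 6 in drug and heme metabolism, 18 to 16 in heat shock, 14 to 12 in folding, 7 to 6 in the glucocorticoid response, 9 to 6 in amino acid and urea metabolism, 20 to 16 in the respiratory chain, 12 to 11 in cytosolic and 9 to 5 in mitochondrial ribosomal proteins. It rose from 6 to 7 in fatty acid oxidation, and was the same in the other functional lists. Counts of rhythmic members follow in this order: main fit, first principal component as covariate, DESeq2, without the 4 libraries of high mitochondrial share, and without all 6 mice of replicate 1, 2 and 3. Over all genes tested the main fit called 2136 of 17293, the covariate fit 4025 of 17293 and DESeq2 3059 of 14572. Calls were 2256 of 17368 without the 4 libraries. Leaving out replicate 1, 2 and 3 gave 792 of 17422, 558 of 17413 and 1473 of 17391. The metabolic lists were fatty acid oxidation (6, 12, 11, 9, 4, 4 and 4), bile acids (7, 9, 8, 6, 3, 3 and 6), glucose and glycogen (13, 16, 15, 15, 8, 6 and 13), NAD metabolism (5, 8, 6, 6, 3, 2 and 3), drugs and heme (7, 8, 8, 6, 6, 6 and 6), fatty acid synthesis (14, 17, 15, 14, 9, 10 and 12), cholesterol (12, 16, 12, 13, 4, 6 and 11) and amino acids and urea (9, 15, 12, 14, 4, 4 and 7). The others were the clock list (18, 18, 18, 17, 14, 12 and 16), the cell cycle (13, 16, 14, 12, 6, 8 and 7), heat shock (18, 19, 18, 18, 13, 6 and 16), folding (14, 17, 15, 14, 7, 4 and 12), the glucocorticoid response (7, 7, 7, 6, 4, 1 and 5), the interferon response (1, 3, 1, 2, 1, 2 and 1) and ribosome biogenesis (15, 21, 18, 17, 8, 3 and 10).

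Of 27 genes of fatty acid oxidation and the fasting response 6 were rhythmic, all 6 with a peak in the light and a mean peak at ZT7.28, and the list's median amplitude of 0.23 lay under that of all genes. Cpt1a (ENSMUSG00000024900, chr19:3323301-3385732 of GRCm38, plus strand), the enzyme that admits long-chain fatty acids into mitochondria, had 266, 248 and 332 CPM at ZT1, 394, 419 and 454 at ZT5, 503, 497 and 468 at ZT9, 396, 459 and 474 at ZT13, 216, 162 and 224 at ZT17 and 107, 206 and 154 at ZT21. The 9 mice at ZT5, ZT9 and ZT13 lay above the other 9, with an amplitude of 0.85 ± 0.09 and a peak at ZT8.45 ± 0.397 h (edgeR adjusted p = 7.8e-06). Fgf21, a fasting hormone of the liver, was at 1.33, 2.17 and 1.76 CPM at ZT5 and at most 0.369 at ZT1, ZT13, ZT17 and ZT21 (amplitude 2.17 ± 0.47, peak ZT6.91). Bdh1, of ketone body metabolism, ran from 122 to 135 CPM at ZT21 to 251 to 259 at ZT5 (amplitude 0.54 ± 0.06, peak ZT7.33). Vnn1, a pantetheinase induced by fasting, followed at ZT9.15 (amplitude 0.67 ± 0.13), and Plin2, which coats lipid droplets, peaked early with 314 to 363 CPM at ZT5 against 106 to 138 at ZT13 (amplitude 0.54 ± 0.10, peak ZT2.26).

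Of 25 cell cycle genes 13 were called, 11 of them with a peak in the light, with a mean peak of the 13 at ZT5.45 and a median amplitude of 0.73 over the 25. Ccnb1, the cyclin of entry into mitosis, had 2.44, 2.75 and 4.29 CPM at ZT1, 3.49, 4.66 and 8.25 at ZT5, 1.62, 3.05 and 1.46 at ZT9, 0.890, 0.852 and 2.03 at ZT13, 0.890, 1.23 and 0.468 at ZT17 and 0.455, 1.37 and 0.406 at ZT21. The 6 mice at ZT1 and ZT5 lay above the 9 in the dark, which stayed at or below 2.03 CPM (amplitude 1.37 ± 0.22, peak ZT4.97, edgeR adjusted p = 4.8e-04). Cdc20, an activator of the anaphase complex that overlaps Elovl1, went from 2.98 to 9.72 CPM at ZT5 to 0.492 to 1.36 at ZT13 (amplitude 1.31 ± 0.23, peak ZT4.20). Aurkb, a kinase of chromosome separation, peaked at ZT4.92 (amplitude 1.20 ± 0.23) and Plk1, another mitotic kinase, at ZT3.94 (amplitude 1.15 ± 0.22). Wee1, which blocks entry into mitosis, peaked around dusk, with 20.3 to 27.3 CPM at ZT9, 15.2 to 23.2 at ZT13 and 2.60 to 4.77 at ZT1 (amplitude 1.23 ± 0.15, peak ZT12.6).

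Of 16 genes of bile acid synthesis and transport 7 were rhythmic, 5 with a peak in the light and 2 in the dark, and the median amplitude over the 16 was 0.28. Abcg8 and Abcg5, the partners in the sterol exporter, overlap each other in the annotation and peaked at ZT7.30 (amplitude 0.87 ± 0.12) and ZT9.30 (amplitude 0.61 ± 0.10). Abcg8 ran from 22.5 to 29 CPM at ZT21 to 90.3 to 105 at ZT5 with no overlap. Abcb11, the bile salt export pump, had 716, 788 and 813 CPM at ZT1, 719, 683 and 784 at ZT5, 412, 409 and 467 at ZT9, 439, 288 and 261 at ZT13, 460.1, 427 and 524 at ZT17 and 637, 668 and 767 at ZT21. Its 9 mice at ZT1, ZT5 and ZT21 lay above the other 9 (amplitude 0.63 ± 0.07, peak ZT0.907, edgeR adjusted p = 2.0e-05). Nr0b2, the repressor SHP of bile acid synthesis, peaked at ZT2.36 (amplitude 0.74 ± 0.14), and Abcc2, an exporter of conjugates into bile, at ZT9.37 (amplitude 0.33 ± 0.07).

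Among glucose and glycogen genes 13 of 23 were rhythmic, 11 of them with a peak in the dark, and the median amplitude over the list was 0.46. Gys2, the liver glycogen synthase, had 79.5, 74.4 and 71.9 CPM at ZT1, 93.5, 128 and 138 at ZT5, 187, 232 and 244 at ZT9, 274, 289 and 198 at ZT13, 191, 198 and 169.8 at ZT17 and 106, 104 and 109.8 at ZT21. Mice at ZT9 and ZT13 lay at or above 187 CPM and those at ZT1 at or below 79.5, with an amplitude of 0.87 ± 0.07 and a peak at ZT12.5 ± 0.298 h (edgeR adjusted p = 2.2e-07). Ppp1r3g had an earlier fitted peak, ZT10.5 with all 18 mice (amplitude 2.18 ± 0.40). Its highest mice were at ZT13, where the mean of Gys2 was also highest, so the measured values show no order between them. Ppp1r3c, another glycogen-targeting subunit, peaked later (amplitude 0.85 ± 0.15, peak ZT19.2), with 89.1 to 197 CPM at ZT21 and 25 to 39.5 at ZT9. Pfkfb1, which sets the pace of glycolysis in liver, overlaps Apex2 and went from 20.9 to 33.3 CPM at ZT5 to 63.8 to 76.8 at ZT21 (amplitude 0.72 ± 0.08, peak ZT18.9). Its relative Pfkfb3 was called (amplitude 0.75 ± 0.17, peak ZT12.8, edgeR adjusted p = 0.0176) but not without replicate 2 at ZT1 (amplitude 0.69, edgeR adjusted p = 0.0506).

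In NAD metabolism the deepest rhythms lay around dusk. Of 19 genes of NAD metabolism and sirtuins 5 were rhythmic, with a median amplitude over the list of 0.20. Nampt, which makes the NAD precursor from nicotinamide, had 62.5, 42.5 and 88.4 CPM at ZT1, 63.2, 79.6 and 50.8 at ZT5, 150.1, 114 and 151 at ZT9, 228, 237 and 374 at ZT13, 100, 154 and 168 at ZT17 and 93.6, 110.0 and 99.1 at ZT21, with the 3 mice at ZT13 above all others and those at ZT1 and ZT5 at or below 88.4 CPM (amplitude 1.00 ± 0.12, peak ZT13.8, edgeR adjusted p = 2.0e-05). Nmrk1, a nicotinamide riboside kinase, and Nnmt, which methylates nicotinamide, peaked at ZT13.6 and ZT15 with amplitudes of 0.84 ± 0.10 and 0.74 ± 0.15. Nadsyn1, the last enzyme of NAD synthesis, peaked in the light (amplitude 0.34 ± 0.07, peak ZT7.14), and Kynu, of the kynurenine path, late in the dark (amplitude 0.29 ± 0.07, peak ZT21.5).

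Among 20 genes of drug and heme metabolism 7 were rhythmic, 3 in the light and 4 in the dark (median amplitude 0.29 over the list). Alas1, the first enzyme of heme synthesis, had 180.0, 166 and 175 CPM at ZT1, 357, 663 and 183 at ZT5, 578, 348 and 554 at ZT9, 826, 682 and 615 at ZT13, 368, 379 and 238 at ZT17 and 149, 187 and 175 at ZT21. Its 3 mice at ZT13 were at or above 615 CPM and all mice at ZT1 and ZT21 at or below 187, while those at ZT5 were far apart (amplitude 1.04 ± 0.13, peak ZT10.9, edgeR adjusted p = 8.2e-05). Por, the electron donor of the P450 enzymes, ran from 145 to 252 CPM at ZT21 to 618 to 1289.6 at ZT13 (amplitude 0.94 ± 0.14, peak ZT12.2). Cyp2a5, a P450 with the near-identical Cyp2a4 beside it, so that its unique counts are uncertain, ran from 119 to 209 CPM at ZT1 to 708 to 963 at ZT9 (amplitude 1.34 ± 0.15, peak ZT13.2). Cyp2e1, the ethanol-inducible P450, was shallower (amplitude 0.48 ± 0.08, peak ZT11.8), and Gclc, of glutathione synthesis, peaked after lights on (amplitude 0.63 ± 0.09, peak ZT2.17) with 371 to 425 CPM at ZT5 and 122 to 207 at ZT13.

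Most rhythmic genes of lipid synthesis peaked in the dark. Of 22 genes of fatty acid synthesis 14 were rhythmic, 11 of them in the dark, with a mean peak of the 14 at ZT20.7 and a median amplitude of 0.54 over the list. Elovl3, which elongates very long fatty acids, had 511, 184 and 229.7 CPM at ZT1, 104, 30.9 and 69 at ZT5, 31.6, 36.9 and 57.5 at ZT9, 65.3, 55.7 and 57.1 at ZT13, 163, 126 and 107 at ZT17 and 176, 321 and 551 at ZT21. Mice at ZT1, ZT17 and ZT21 all lay at or above 107 CPM and those at ZT9 and ZT13 at or below 65.3 (amplitude 1.63 ± 0.17, peak ZT22, edgeR adjusted p = 6.9e-06). Pnpla3, a lipid droplet protein induced with lipogenesis, had 6.95, 6.53 and 3.22 CPM at ZT17, 10.5, 2.59 and 5.55 at ZT21 and at most 1.37 at all other times (amplitude 1.88 ± 0.29, peak ZT19.5). Elovl6, which elongates palmitate, came earlier (amplitude 1.09 ± 0.14, peak ZT15.8), with 311, 668 and 230.1 CPM at ZT17 and 74.2, 83.7 and 112 at ZT1. Acacb, the acetyl-CoA carboxylase at mitochondria, went from 58.9 to 88 CPM at ZT9 to 216 to 251 at ZT21 (amplitude 0.79 ± 0.09, peak ZT19.7).

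Cholesterol synthesis and uptake had 12 of 25 genes called, all 12 with a peak in the dark and a mean of ZT21.2 (median amplitude 0.35 over the list). Hmgcs1, which makes the substrate of HMG-CoA reductase, had 291, 578 and 282 CPM at ZT1, 304, 282 and 318 at ZT5, 137, 249 and 304 at ZT9, 94.9, 118 and 121 at ZT13, 167, 491 and 235 at ZT17 and 536, 404 and 479.6 at ZT21. The 3 mice at ZT13 were below all others and those at ZT21 at or above 404 CPM, with replicate 2 at ZT1 and at ZT17 high among their time points (amplitude 0.79 ± 0.16, peak ZT23.6, edgeR adjusted p = 0.00728). Insig2, which holds back the activation of SREBP, ran from 104 to 135 CPM at ZT9 to 449 to 709 at ZT1 (amplitude 1.06 ± 0.10, peak ZT22.3). Lss, lanosterol synthase, ran from 30.7 to 40.2 CPM at ZT9 to 91.9 to 129 at ZT21 without overlap (amplitude 0.75 ± 0.09, peak ZT20.6). Fdps, farnesyl diphosphate synthase, peaked at ZT20.7 (amplitude 0.87 ± 0.18), but has near-identical pseudogenes and overlaps Gm43738. Mvd, a decarboxylase of the same path that overlaps Gm20388, was called (amplitude 0.83 ± 0.21, peak ZT20.7) but not without replicate 1 at ZT21 (amplitude 0.70, edgeR adjusted p = 0.0885) or by limma-voom.

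Heat shock and body temperature genes had 18 of 20 called, with a mean peak of the 18 at ZT17.3, 16 peaks in the dark and a median amplitude of 0.63 over the list. Hsp90aa1, the inducible HSP90, had 359, 270.3 and 422 CPM at ZT1, 108, 112 and 111 at ZT5, 230.1, 142 and 196 at ZT9, 453, 342 and 433 at ZT13, 426, 639 and 457 at ZT17 and 541, 451 and 627 at ZT21. Mice at ZT5 were the lowest 3 and all 9 in the dark were at or above 342 CPM (amplitude 1.07 ± 0.12, peak ZT18.4, edgeR adjusted p = 2.4e-05). Hspb1, a small heat shock protein, went from 2.86 to 5.85 CPM at ZT5 to 11.9 to 18 at ZT17 (amplitude 1.06 ± 0.15, peak ZT18.8), and Hsph1, a nucleotide exchange factor of HSP70, from 25.5 to 32.4 at ZT5 to 146 to 179 at ZT13 (amplitude 0.95 ± 0.16, peak ZT17.5). Hspa1b, the twin of Hspa1a, peaked at ZT14.7 (amplitude 1.06 ± 0.24).

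Folding in the endoplasmic reticulum had 14 of 25 genes called, all in the dark with a mean peak at ZT20.7 (median amplitude 0.44 over the list), and 5 of the 25 also had a 12 h component (0.63% of all genes tested). Hspa5, the chaperone BiP, had 1862, 1563 and 1660.4 CPM at ZT1, 444, 502 and 451 at ZT5, 885, 609 and 1056 at ZT9, 1149.5, 1413 and 1142 at ZT13, 1385, 1471 and 1374 at ZT17 and 2030.2, 1450.2 and 1995 at ZT21. The 3 mice at ZT5 were the lowest of all 18, with those at ZT1 and ZT21 at or above 1450.2 CPM (amplitude 0.74 ± 0.13, peak ZT19.6, edgeR adjusted p = 0.00332). Pdia4, a disulfide isomerase, had 116 to 183 CPM at ZT9 and 301 to 396 at ZT1 (amplitude 0.67 ± 0.08, peak ZT21.4). Sdf2l1, a cofactor of BiP, peaked at ZT22.4 (amplitude 0.78 ± 0.14) and Manf, a secreted stress protein that overlaps Dcaf1 and Rbm15b, at ZT19.8 (amplitude 0.73 ± 0.16). Syvn1, a ubiquitin ligase for misfolded proteins that overlaps Mrpl49, had 371, 271 and 211 CPM at ZT1, above all other mice. It had 54.7, 54.8 and 58.2 at ZT5, and its fitted peak was ZT22.5 although ZT1 was highest (amplitude 0.73 ± 0.18).

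The ER stress element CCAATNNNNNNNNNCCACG is shown because members of the folding list moved together. It is found in 37 of the 32851 promoters (0.113%) and in 8 of the 22 folding genes with a promoter in the table: Hsp90b1, Calr, Hspa5, Dnajc3, Syvn1, Pdia6, Canx and Creld2, of which 7 were rhythmic. As above, the percentage is a share of promoters and the members are counted as genes. The stretches are from the 250 bases before the start (RefSeq, GRCm38.p6), both strands searched, with the element in capitals.
Hspa5, chr2:34772020-34772048, plus strand: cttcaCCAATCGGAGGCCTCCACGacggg
Hsp90b1, chr10:86705633-86705661, minus strand: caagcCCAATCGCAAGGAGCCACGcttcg

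Of 16 genes of the glucocorticoid response 7 were rhythmic, 5 of them in the dark, with a median amplitude of 0.45 over the list. Cdkn1a, the cell cycle inhibitor p21, had 65.4, 63.4 and 71 CPM at ZT1, 13.3, 12.5 and 11.8 at ZT5, 1.21, 4.22 and 1.62 at ZT9, 10.5, 15.7 and 19.1 at ZT13, 38.8, 29.8 and 44.3 at ZT17 and 31.8, 44.1 and 74.5 at ZT21. Its 3 mice at ZT9 were the lowest and those at ZT1 among the highest, with an amplitude of 1.98 ± 0.22 and a peak at ZT21.3 ± 0.425 h (edgeR adjusted p = 6.4e-05). Fkbp5, a cochaperone of the glucocorticoid receptor, had 167, 262 and 177 CPM at ZT13 and 59.6, 57.9 and 68.6 at ZT5 (amplitude 0.71 ± 0.15, peak ZT15.4). Tsc22d3, the glucocorticoid-induced leucine zipper GILZ, peaked at ZT17.2 (amplitude 0.51 ± 0.08). Tat, tyrosine aminotransferase, was highest in the 3 mice at ZT13 (4659 to 5543 CPM) and was called (amplitude 0.48 ± 0.12, peak ZT16.1, edgeR adjusted p = 0.0310) but not without any single one of 5 mice, which were replicates 1, 2 and 3 at ZT5 and replicates 1 and 2 at ZT13 (amplitude 0.39 to 0.50, edgeR adjusted p 0.0555 to 0.0706).

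Of 20 genes of amino acid and urea metabolism 9 were rhythmic, 6 of them in the dark (median amplitude 0.37 over the list). Asl, argininosuccinate lyase of the urea cycle, ran from 284 to 399.6 CPM at ZT5 to 649 to 1036 at ZT17 (amplitude 0.73 ± 0.08, peak ZT15.8, edgeR adjusted p = 1.1e-05). Hal is histidine ammonia-lyase (amplitude 0.45 ± 0.07, peak ZT0.465). Psat1, of serine synthesis, was called (amplitude 1.06 ± 0.27, peak ZT9.02) but not without replicate 2 at ZT9 or replicate 2 at ZT21 (amplitude 0.86 to 1.02, edgeR adjusted p 0.0527 to 0.105) or by limma-voom. Of 24 interferon response genes 1 was called in the main fit, Rsad2, an antiviral enzyme (amplitude 0.54 ± 0.10, peak ZT1.84), and 2 without replicate 3 at ZT17. Bst2 and Irf7 (overlapping Phrf1), the members of highest CPM, were not called (amplitudes 0.08 ± 0.13 and 0.33 ± 0.27).

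Ribosome biogenesis had 15 of 28 genes called, all 15 with a peak in the dark, a mean peak at ZT14.1 and a median amplitude of 0.34 over the list. Nop56, a core protein of the particles that methylate ribosomal RNA, overlaps Idh3b and had 11.5, 10.9 and 8.78 CPM at ZT1, 8.22, 9.58 and 13.1 at ZT5, 20.9, 17 and 19.6 at ZT9, 29.6, 37.1 and 17.1 at ZT13, 21.3, 21 and 19.6 at ZT17 and 18.7, 16.4 and 12.6 at ZT21. Mice at ZT1 and ZT5 all stayed at or below 13.1 CPM and the 2 highest were at ZT13 (amplitude 0.72 ± 0.10, peak ZT14.1, edgeR adjusted p = 1.5e-04). Nolc1, a nucleolar chaperone (amplitude 0.67 ± 0.12, peak ZT15), and Rrp12, an export factor of pre-ribosomes (amplitude 0.65 ± 0.13, peak ZT14.8), also had their highest means at ZT13. Rrn3, an initiation factor of RNA polymerase I, peaked at ZT12.9 (amplitude 0.57 ± 0.09) and Nop2, a methylase of ribosomal RNA, at ZT13.3 (amplitude 0.55 ± 0.11).

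The counts of rhythmic genes of the respiratory chain and of ribosomal proteins depended on single mice. Over all genes, leaving out 1 mouse gave 1614 (replicate 3 at ZT5) to 2662 (replicate 3 at ZT1) calls. Of 78 nuclear genes of the respiratory chain 20 were rhythmic, all in the dark around ZT16.5 (median amplitude 0.25 over the list, 0.27 over all genes). The count was 9 without replicate 1 at ZT5, 12 without replicate 2 at ZT5, 13 without replicate 3 at ZT5, replicate 1 or 2 at ZT1 or replicate 2 at ZT17, 32 without replicate 3 at ZT1, and 31 without the 4 libraries of high mitochondrial share. Ndufa12, of complex I, had 7.43, 5.54 and 6.90 CPM at ZT1, 5.29, 9.37 and 7.10 at ZT5, 8.60, 11.4 and 14.8 at ZT9, 11.3, 22 and 10.6 at ZT13, 29.5, 18.1 and 22.6 at ZT17 and 17.9, 22 and 13.1 at ZT21. Mice at ZT1 and ZT5 stayed at or below 9.37 CPM and those at ZT17 and ZT21 at or above 13.1 (amplitude 0.87 ± 0.13, peak ZT16.4, edgeR adjusted p = 4.5e-04). Of complex III, Uqcrb (overlapping Gm10767), Uqcrh and Uqcr10 peaked at ZT16.6, ZT16.6 and ZT16.4, with amplitudes of 0.62 ± 0.14, 0.58 ± 0.13 and 0.54 ± 0.11. Uqcrh had 48.9, 42.6 and 118 CPM at ZT1, with the high value in the mouse of 12.4% mitochondrial counts. Ndufa5, of complex I (amplitude 0.63 ± 0.15, peak ZT15.6), lost its call without any single one of replicate 1 at ZT1 or replicates 1, 2 or 3 at ZT5 (amplitude 0.58 to 0.61, edgeR adjusted p 0.0505 to 0.0646).

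Of 79 cytosolic ribosomal protein genes 12 were rhythmic (15.2%, a share near the 12.4% of all genes). All of these had a fitted peak in the dark, around ZT16.1. The median amplitude over the list was 0.22, under the 0.27 of all genes. The count was 1 without replicate 1 or replicate 3 at ZT5, 2 and 3 without replicate 1 and replicate 2 at ZT1, 4 and 5 without replicate 2 and replicate 1 at ZT13, 5 without replicate 2 at ZT5, 6 without replicate 1 at ZT17, 32 without replicate 3 at ZT1 and 35 without the 4 libraries. Near-identical pseudogenes of ribosomal proteins make unique counts uncertain. Rpl7a, of the large subunit, had 17.9, 24.4 and 15.5 CPM at ZT1, 17.9, 23.7 and 10.7 at ZT5, 18.8, 25.7 and 30.3 at ZT9, 30.9, 51.7 and 10.4 at ZT13, 40.9, 35.4 and 49.2 at ZT17 and 42.1, 35.9 and 24.8 at ZT21. The mice at ZT17 lay above those at ZT1 and ZT5, and those at ZT13 were far apart (amplitude 0.62 ± 0.15, peak ZT16.6). Its call ended without replicate 3 at ZT5 or replicate 3 at ZT17 (amplitude 0.55 to 0.58, edgeR adjusted p 0.0633 to 0.0646). Rpl36, Rps26 and Rps27l peaked at ZT15.7, ZT15.9 and ZT16.9 and lost their calls without any single one of 7, 13 and 8 mice. In all 3 genes replicate 3 at ZT1 was above the other mice at that time, for example 66.7, 50.0 and 111 CPM in Rps26. The mice were replicates 1 and 2 at ZT1, replicates 1, 2 and 3 at ZT5, replicate 2 at ZT13 and replicate 1 at ZT17 for Rpl36 (amplitude 0.47 to 0.61, edgeR adjusted p 0.0555 to 0.0881). For Rps26, also lost with RLE scaling and with edgeR's own count filter, they were replicates 1 and 2 at ZT1, replicates 1, 2 and 3 at ZT5, replicates 1 and 2 at ZT9, replicates 1, 2 and 3 at ZT13, replicate 1 at ZT17 and replicates 1 and 3 at ZT21 (amplitude 0.43 to 0.51, edgeR adjusted p 0.0542 to 0.120), and for Rps27l replicate 1 at ZT1, replicates 1, 2 and 3 at ZT5, replicate 1 at ZT9, replicate 2 at ZT17 and replicates 1 and 3 at ZT21 (amplitude 0.44 to 0.50, edgeR adjusted p 0.0505 to 0.102).

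Of 77 mitochondrial ribosomal protein genes 9 were rhythmic (median amplitude 0.13 over the list), all in the dark around ZT18.0, a share near that of all genes. The count was 2 without replicate 3 at ZT5, 3 without replicate 1 at ZT5, 4 without replicate 1 at ZT9 or replicate 2 at ZT17, 5 without replicate 2 at ZT1, replicate 2 at ZT5 or replicate 2 at ZT9, 12 without replicate 3 at ZT1 or ZT13 and 11 without the 4 libraries. Mrps27 kept its call when any single mouse was left out (amplitude 0.42 ± 0.07, peak ZT20.0), with 31.5 to 36.6 CPM at ZT17 and 18.9 to 20.9 at ZT9. Mrps21 (amplitude 0.70 ± 0.16, peak ZT16.5) lost it without replicates 1, 2 or 3 at ZT5 or replicate 1 at ZT17 (amplitude 0.63 to 0.67, edgeR adjusted p 0.0555 to 0.0569), Mrps6 (overlapping Slc5a3 and AC144408.3) without replicates 1 or 3 at ZT5, replicates 1 or 2 at ZT9, replicate 2 at ZT17 or replicate 2 at ZT21 (amplitude 0.31 to 0.39, edgeR adjusted p 0.0537 to 0.0644), Mrps36 without replicate 2 at ZT1, replicates 1, 2 or 3 at ZT5, replicate 1 at ZT9, replicates 2 or 3 at ZT17 or replicates 1 or 3 at ZT21 (amplitude 0.45 to 0.55, edgeR adjusted p 0.0520 to 0.0993) or without the 4 libraries and Mrpl33 (overlapping Rbks) without replicates 1 or 2 at ZT1, replicates 1, 2 or 3 at ZT5, replicates 1 or 2 at ZT9, replicates 1 or 2 at ZT13, replicate 1 at ZT17 or replicates 1 or 3 at ZT21 (amplitude 0.43 to 0.49, edgeR adjusted p 0.0523 to 0.103). The call of Mrps6 also ended when no filter was used. With the first principal component as covariate the respiratory chain, cytosolic ribosomal and mitochondrial ribosomal lists had 40, 36 and 19 members called, by DESeq2 33, 23 and 12, without replicate 1 in all ZT 1, 0 and 0, without replicate 2 in all ZT 1, 0 and 1, and without replicate 3 in all ZT 28, 30 and 10. Over all genes these fits called, in this order, 4025 of 17293, 3059 of 14572, 792 of 17422, 558 of 17413 and 1473 of 17391. The cause of these differences was not tested.

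Of the 9 hepatocyte markers tested, Cps1 and Apoa2 were called, and 1 of the 2 when any of 12 mice was left out, which were replicates 1 and 2 of ZT1, ZT9 and ZT13, all 3 of ZT5, replicate 1 of ZT17 and replicates 1 and 3 of ZT21. The called cell-type markers named here, other than acinar, were chosen after their values were seen. Of 3 adipocyte markers tested, Cidec and Cfd were called, and 1 of these 2 without replicate 2 at ZT9 (Cfd lost), replicates 1 or 3 at ZT5, replicate 1 at ZT9, replicates 1 or 2 at ZT13, replicates 2 or 3 at ZT17 or replicate 1 at ZT21.

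A 12 h component beside that of 24 h was found in 109 genes (0.63% of those tested; 1744 at an unadjusted p under 0.05), in 65 without replicate 2 at ZT9, in 4, 5 and 13 without all mice of replicate 1, 2 and 3, and in 379 by DESeq2. Such a component can also come from 1 daily peak or trough that is sharper than a cosine. By itself it does not mean 2 maxima a day. Nfil3 had a 12 h amplitude of 0.78 (edgeR adjusted p = 2.4e-06), with its drop at ZT5 and ZT9 between the high values at ZT1 and ZT13 given above. Aqp8 (12 h amplitude 1.09, edgeR adjusted p = 0.00246) was lowest at ZT13 in the values given above. Gfpt1, the entry enzyme of hexosamine synthesis, had 67.1, 56.8 and 66.2 CPM at ZT1, 15.8, 20.0 and 21.5 at ZT5, 41.1, 33.5 and 52.1 at ZT9, 47.5, 42.9 and 48.7 at ZT13, 28.7, 33.8 and 36.4 at ZT17 and 48.8, 52.6 and 61.5 at ZT21. It was lowest in the 3 mice at ZT5, with a second low at ZT17 (12 h amplitude 0.69, edgeR adjusted p = 0.00318), and was not called at 24 h. Ablim3, an actin-binding protein, had 42.3, 36.1 and 44.4 CPM at ZT1, 17.4, 19 and 23.1 at ZT5, 25.8, 23.9 and 18 at ZT9, 46, 47.2 and 33.1 at ZT13, 23.7, 22.8 and 26.1 at ZT17 and 15.7, 24.6 and 26 at ZT21, with maxima at ZT1 and ZT13 in which the 6 mice lay above the other 12 (12 h amplitude 0.61). Map3k5, a stress kinase, was shaped alike (12 h amplitude 0.51), with 36 to 48.4 CPM at ZT1 and 32.3 to 37.4 at ZT13, and 16.1 to 23.2 at ZT17.

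Hspa8, the constitutive HSP70, had both components, with 24 h amplitude 0.49 ± 0.10 and 12 h amplitude 0.41, from 797 to 936 CPM at ZT5 to 2299 to 2369.8 at ZT13. Esr1, estrogen receptor α, also had both, with a 12 h amplitude of 0.54 and 18.4 to 27.4 CPM at ZT9 against 59.9 to 66.1 at ZT13. Its 24 h call (amplitude 0.60 ± 0.14, peak ZT18.3) ended without replicates 1 or 3 at ZT5 or replicate 3 at ZT17 (amplitude 0.56 to 0.58, edgeR adjusted p 0.0545 to 0.0629). Of the clock list 6 of 19 had a 12 h component (0.63% of all genes tested), namely Nr1d1, Dbp, Tef, Ciart, Nfil3 and Arntl. In Nr1d1, Dbp, Tef, Ciart and Arntl the means of the time points had a single maximum and a single minimum a day.

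No gene differed in its 24 h rhythm between HFD and Ctr offspring at 4 weeks: 0 of 16776 (0%) by edgeR and 0 by DESeq2, with 378 and 435 at an unadjusted p under 0.05. That does not show that rhythms were equal. The clock list had a median amplitude of 1.38 in HFD and 1.46 in Ctr, and 0 of its 19 members had an unadjusted p under 0.05. Fitted together, amplitudes in HFD against Ctr were 4.05 against 3.87 for Npas2, 1.96 against 1.71 for Arntl, 2.97 against 3.14 for Nr1d1, 3.65 against 3.41 for Dbp, 1.38 against 1.46 for Per2 and 1.67 against 1.83 for Cry1. Peak times in HFD and Ctr were ZT9.46 and ZT10.3 for Dbp and ZT12.5 and ZT13.3 for Per3. Those of Npas2 were ZT23.1 and ZT23.3, of Arntl ZT21.5 and ZT21.8, of Per2 ZT15.2 and ZT15.95 and of Cry1 ZT18.4 and ZT18.7. Nr1d1 peaked later in HFD, at ZT7.20 against ZT6.74. The 5 genes of lowest p were Pnliprp1, Cela1 and Cela2a, which rest on replicate 2 at ZT9, Mup8, and Rpl7a. Rpl7a had an amplitude of 0.61 against 0.33, with peaks at ZT16.6 and ZT5.75, and was not called (edgeR adjusted p = 0.9999). Medians over all genes tested were 0.27 and 0.26, over the respiratory chain 0.24 and 0.14, and over cytosolic ribosomal proteins 0.22 and 0.11, with 3 and 4 members at an unadjusted p under 0.05.

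Against HFD offspring at 16 weeks, whose counts came in another table so that age and table cannot be told apart, 1 of 16799 genes (0.00595%) differed in rhythm by edgeR, with 1939 at an unadjusted p under 0.05, and 40 by DESeq2. That gene was Mup8 (amplitude 3.68 against 2.20, edgeR adjusted p = 0.00423), and without replicate 3 at ZT21 edgeR called 0, with 1494 at an unadjusted p under 0.05. The next by p were Lars2, a mitochondrial leucyl-tRNA synthetase (0.32 against 1.15), G6pdx, the first enzyme of the pentose phosphate path (0.30 against 0.82, overlapping Ikbkg), the endoplasmic reticulum chaperone Hsp90b1 (0.49 against 0.30) and the disulfide isomerase Pdia3 (0.44 against 0.20, overlapping Catsper2), each with edgeR adjusted p = 0.127. Hsp90b1 peaked at ZT20.6 in the 4-week mice and at ZT2.76 in the 16-week mice. The clock list had medians of 1.39 and 1.33, the cell cycle list of 0.73 and 0.43, and all genes of 0.27 and 0.23. Of the respiratory chain 38 of 78 and of the cytosolic ribosomal proteins 30 of 79 had an unadjusted p under 0.05 for this difference, and 0 passed adjustment by edgeR with all mice. Over all genes edgeR called 83 without replicate 3, 8 without the 4 libraries of high mitochondrial share and 0 without replicate 1 or replicate 2.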

How the data were processed

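The authors deposited raw read counts per gene for liver at each age: per the submitters' notes, reads were trimmed, aligned to GRCm38 with HISAT2 2.0.5 and counted with featureCounts 1.5.0-p3 on Ensembl gene models. Groups came from the sample labels. In R 4.3.3, counts of the 18 HFD livers at 4 weeks (15867488 to 19133010 per library; common biological coefficient of variation 0.273) were scaled by TMM and fitted with edgeR 4.0.16 (quasi-likelihood F test, Benjamini-Hochberg adjustment over all genes tested). Genes entered the test if 50% or more of these mice had any read (count over 0), judged in both groups for a difference in rhythm. The 12 h test added a second pair of terms, and differences were tested as interactions of diet or age with the 24 h terms. Alternatives were DESeq2 1.42.0, limma 3.58.1 (voom), other scaling, filters, threshold, a replicate block, a principal component as covariate, ZT as a factor, and leaving out mice. Named genes were all clock list members, the 4 protein-coding genes of largest amplitude per window (mean of at least 1 CPM, no clock members or predicted genes), up to 5 rhythmic members of largest amplitude per list (the 2 of highest CPM where fewer than 2 passed), the 6 of lowest p at 12 h, the 5 of lowest p for each difference and the marker of highest CPM per cell type. A few genes the rule gives are not reported here. Members, lists and markers were chosen with earlier results of these data known. Columns of 2 count libraries without a sample record were not used. The scripts were tested on simulated data, and libraries of a time point were checked for duplicates (lowest chi-square per degree of freedom 14.79, so none were copies).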

Additional observations from a re-analysis of the deposited data

Results flagged for a closer look

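Mup8, a major urinary protein gene, differed in its 24 h rhythm between HFD offspring at 4 and at 16 weeks by the interaction test of edgeR (adjusted p = 0.00423), and is given here because 2 groups differed under the same fit. The 4-week mice had a median of 1.26 CPM before TMM scaling and a maximum of 266 CPM, in replicate 3 at ZT21, the library with an age of 16 weeks in 1 label. The 16-week mice had a median of 2.34 CPM and a maximum of 109, and the 16 Ctr mice at 4 weeks a maximum of 9.87. Without replicate 3 at ZT21 edgeR called 0 genes. The second highest value was 11.8 CPM in the 4-week HFD mice and 48.3 CPM in the 16-week mice. High values thus occurred in 1 mouse at 4 weeks and in more than 1 at 16 weeks, and the cause was not tested.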

How the results depend on the processing

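The count of 24 h genes stayed within 1.5 times 2136 under RLE scaling (2126), edgeR's own count filter (2290), no filter (2226), limma-voom (2237), DESeq2 (3059), a replicate block (2529), ZT as a factor (1640) and without the 4 libraries of high mitochondrial share (2256), an alternative chosen after seeing the data. It was 1031 at an adjusted p under 0.01 and 4025 with the first principal component as covariate. Leaving out mice gave 558 to 2662, with the extremes without replicate 2 (12 mice) and without replicate 3 at ZT1. Of the 2136 genes, 2091 were also called by DESeq2, 2014 by limma-voom, 2134 with the covariate and 536 without replicate 2. The share peaking in the dark was 50.98 to 57.03% over the leave-outs. The median amplitude was 0.58 at the stricter threshold, 0.38 with the covariate and 0.47 to 0.72 over the leave-outs. The 12 h count of 109 was 379 by DESeq2, 207 with the block and 4 to 117 over the leave-outs run for it (replicate 1, 2 or 3, replicate 2 at ZT9, replicate 3 at ZT21). The difference from 16 weeks (1 gene) was 40 by DESeq2, 3 with edgeR's filter, 2 with the block, 8 without the 4 libraries and 0 to 83 over the same 5 leave-outs, the last without replicate 3. The difference from Ctr was 0 in all alternatives run. Whether replicate numbers pair mice is open: residuals within ZT had a median r of 0.0992 between mice of the same number (45 pairs, 22 of them over 0.1) and −0.0344 between others (90 pairs), and for 12 of 18 mice the best match had the same number. The main fit has no block. Of 124 named rhythmic genes, 60 were called in all 30 settings and 98 whichever single mouse was left out, while 40, 56 and 15 were lost without replicate 1, 2 and 3, 5 with the block (Cela1, Cela2a, Gapdh, Mylpf and Prtn3), 11 by limma-voom and 4 without the 4 libraries. DESeq2 gave 8 no adjusted p. Of 17 named genes not called, 13 were called in no setting. Gapdh, Klk1 and Mylpf moved their peak by over 6 h in some leave-out, with amplitudes of 0.48 to 1.92, 0.57 to 11.79 and 0.28 to 3.02. Fewer mice are part of each leave-out, and otherwise the cause was not tested. At these depths genes of few reads were called least often, 1.90% in the lowest quartile of CPM.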
